A study of Homo sapiens with 4 samples.

Results

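The 10 BCL2 family genes examined here were the antiapoptotic genes BCL2, BCL2L1 and MCL1, the effector genes BAX and BAK1, and the BH3-only genes BCL2L11, BBC3, PMAIP1, BIK and BMF. Their FOXK2 peaks were taken as every row of the 2 deposited ChIP-seq peak lists that names one of these genes as the nearest transcription start site (TSS). This gave 13 of 12471 peaks in replicate 1 and 21 of 27281 peaks in replicate 2, for 10 of 20056 protein-coding genes of the RefSeq gene table. A gene with no row has no peak under this rule.

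FOXK2 is a forkhead transcription factor, and chromatin bound to it was immunoprecipitated with an anti-FOXK2 antibody from OVCAR-5, an ovarian cancer cell line that the labels describe as high grade serous and from ascites. The cells were grown in RPMI medium with fetal bovine serum, with no treatment or genetic change given for these libraries. The 2 FOXK2 libraries are biological replicates of a single condition in a single line, so the data hold no comparison between conditions. The 2 input libraries were not analysed here.

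BCL2 family proteins decide whether the outer membrane of the mitochondrion is made permeable, the step that releases cytochrome c and commits a cell to apoptosis. The effectors BAX and BAK form the pores, the antiapoptotic members hold them in check, and the BH3-only proteins, which respond to stresses such as DNA damage, growth factor withdrawal and protein misfolding, neutralize the antiapoptotic members or activate the effectors. BIM (encoded by BCL2L11) and PUMA (BBC3) are known targets of the FOXO branch of the forkhead family in other cells.

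Going by the nearest TSS, FOXK2 peaks found at the same place in both replicates were assigned to the 5 BH3-only genes of this set and to none of its other 5 genes, and to 25.5% of all protein-coding genes. Shared peaks named for neighboring genes also lay inside BCL2L1 and MCL1. Among 3 BH3-only genes outside the set, BAD and HRK had no peak, as was true of 45.6% of all protein-coding genes. BID had a peak in replicate 2 alone, as had 23.1% of all protein-coding genes. The pattern therefore did not extend to all BH3-only genes. The forkhead heptamer TGTTTAC was present in 6 of the 8 shared peaks of these genes, against 34.3% (replicate 1) and 34.9% (replicate 2) of all shared peaks. The 2 without it were BMF peaks, and the highest-ranked shared peak of each gene held it. The sequences of 4 of these peaks are shown, as examples of shared peaks with the heptamer. Each is the replicate 1 peak on the plus strand of hg38, read 5′ to 3′, with TGTTTAC or its reverse complement GTAAACA in capitals. In BMF the capitals also mark a TGTTTA that lacks the last base of the heptamer.
BCL2L11, chr2:111120622-111120832: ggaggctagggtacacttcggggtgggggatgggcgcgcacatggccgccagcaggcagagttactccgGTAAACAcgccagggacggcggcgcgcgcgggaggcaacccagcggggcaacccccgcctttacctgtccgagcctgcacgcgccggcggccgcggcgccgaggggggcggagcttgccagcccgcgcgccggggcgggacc
BBC3, chr19:47230564-47230774: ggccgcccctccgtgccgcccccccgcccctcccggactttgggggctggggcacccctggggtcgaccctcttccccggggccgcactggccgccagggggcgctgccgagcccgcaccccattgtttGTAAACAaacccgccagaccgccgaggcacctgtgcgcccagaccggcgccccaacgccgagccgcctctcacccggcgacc
BMF, chr15:40081757-40081967: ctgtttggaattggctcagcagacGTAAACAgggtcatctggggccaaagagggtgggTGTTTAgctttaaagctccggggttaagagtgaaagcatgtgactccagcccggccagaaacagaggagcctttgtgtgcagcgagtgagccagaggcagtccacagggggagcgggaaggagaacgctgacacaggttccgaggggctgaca
PMAIP1, chr18:59899484-59899694: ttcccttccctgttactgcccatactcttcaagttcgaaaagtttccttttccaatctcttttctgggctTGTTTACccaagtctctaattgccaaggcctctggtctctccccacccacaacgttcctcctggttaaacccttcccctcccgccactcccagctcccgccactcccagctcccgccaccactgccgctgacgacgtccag
The heptamer began at base 111120691 in BCL2L11, 47230693 in BBC3, 40081781 in BMF and 59899554 in PMAIP1. It lay on the minus strand in the first 3 and on the plus strand in PMAIP1. Relative to the replicate 1 peak centre, these sites lay at -33 bp in BCL2L11, 27 bp in BBC3, -78 bp in BMF and -32 bp in PMAIP1. A match describes these letters only and was not tested for occupancy.

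In replicate 1, 6 of the 10 genes had a peak, against 31.3% of all protein-coding genes. In replicate 2, 8 of the 10 had one, against 51.7%. The 6 genes of replicate 1 (BCL2L11, BBC3, PMAIP1, BIK, BMF and BAK1) also had a peak in replicate 2, which is 60.0% of the family against a background of 28.6%. Overlap of the peaks between replicates by at least 1 bp held for 5 genes, the BH3-only genes, against 25.5% of all genes. A peak of the promoter class in both lists was assigned to 3 genes, BCL2L11, BIK and PMAIP1, against 9.3%. In these 3 genes the promoter peaks overlapped and held TGTTTAC in both replicates, which was true of 1.51% of all protein-coding genes. With 10 genes chosen by hand, these shares are descriptions and carry no test.

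Each peak carries a HOMER peak score, which rises with the number of sequenced tags in the peak and is scaled to its library. Scores fell on whole multiples of a fixed step (0.1886 in replicate 1 and 0.1487 in replicate 2), so the tag number behind each score could be recovered. The tag intervals given here are exact Poisson 95% intervals and cover counting error only, since tags amplified by PCR are not all independent molecules. The median peak held 31 tags in replicate 1 and 49 in replicate 2, and the weakest held 16 and 21, so a site below these numbers would not be listed. Scores were ranked within their own list, and a score percentile of 100 marks the strongest peak of that list. Since the lists differ in length, a similar rank gives a higher percentile in replicate 2, and the SD of a percentile includes that difference.

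**Figure D1:**
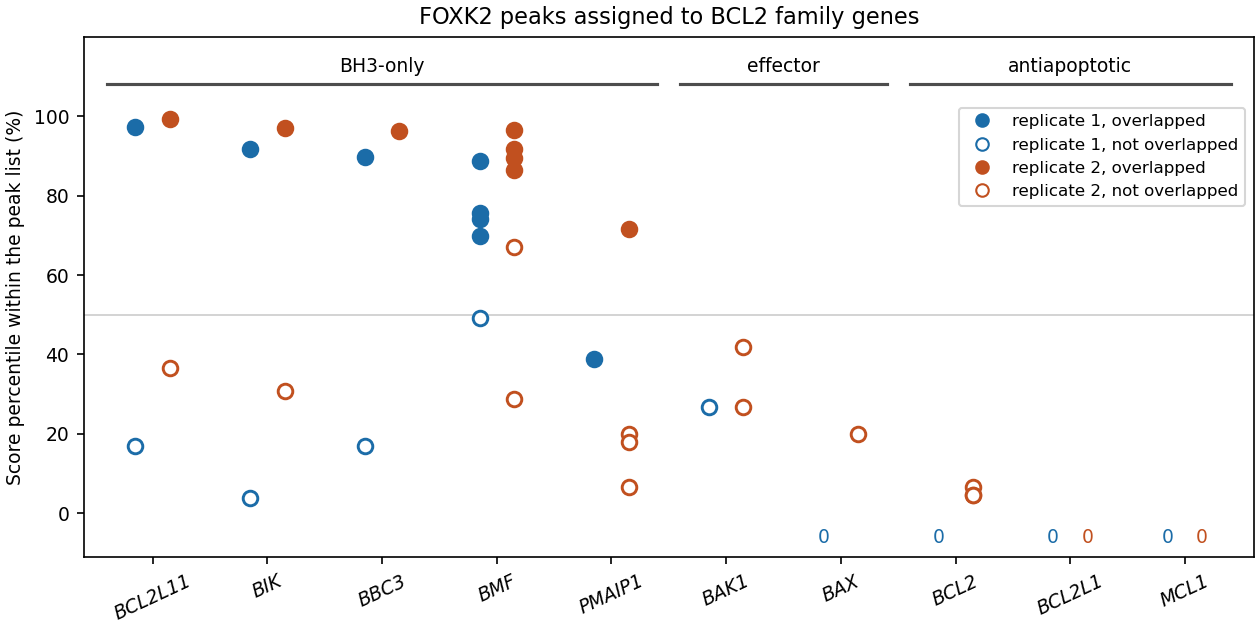
Score percentile within the peak list (vertical axis, %) of each FOXK2 peak assigned to the 10 genes, grouped by role, with blue for replicate 1, orange for replicate 2, filled circles for peaks overlapped in the other replicate, open circles for the others, and 0 for a gene with no peak in that list. The filled circles all belong to the 5 BH3-only genes, from 38.89 for PMAIP1 in replicate 1 to 99.31 for BCL2L11 in replicate 2, and the peaks of the effector and antiapoptotic genes all lie below 42.

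BCL2L11, which encodes the BH3-only protein BIM, had the strongest peak of the family. It scored 18.7 in replicate 1 (99 tags, interval 80.46 to 120.5) and 46.0 in replicate 2 (309 tags, 275.5 to 345.4). These are rank 338 of 12471 and rank 187 of 27281, a mean score percentile of 98.28 ± 1.46 (SD, n = 2). The peak belonged to the promoter class, with its centre at -187 bp from the TSS in replicate 1 and -207 bp in replicate 2. In GENCODE it lies upstream of the canonical transcript but within the wider span of BCL2L11, and also within the span of the noncoding gene MIR4435-2HG. Among the 5736 protein-coding genes with peaks in both lists, BCL2L11 came 226th when genes were ordered by the mean percentile of their best peaks.

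BIK, a BH3-only protein of the endoplasmic reticulum, had a promoter peak centred at -169 bp in replicate 1 and -160 bp in replicate 2. Its score was 12.5 in replicate 1 (66 tags, 51.04 to 83.97) and 26.2 in replicate 2 (176 tags, 151.0 to 204.0). The mean score percentile was 94.43 ± 3.79 (SD, n = 2), which placed BIK 678th of the 5736 genes. BBC3, which encodes PUMA, a direct target of p53 in other cells, had its shared peak in the first intron of NM_001127240 at 525 and 547 bp from the TSS. The score was 11.5 in replicate 1 (61 tags, 46.66 to 78.36) and 23.3 in replicate 2 (157 tags, 133.4 to 183.6). Its mean percentile was 92.94 ± 4.61 (SD, n = 2), and it came 837th. The order of BIK, BBC3 and BMF rests on mean percentiles that lie closer together than their spread between replicates.

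BMF, a BH3-only protein known to be released from the cytoskeleton on loss of cell attachment, carried the most shared peaks. It had 5 peaks in replicate 1 and 6 in replicate 2, and 4 of them overlapped between lists along 21.8 kb of chromosome 15. At least 4 overlapping peaks were assigned to 121 protein-coding genes, or 0.603%, and the most for any gene was 11. The strongest BMF pair was intergenic, 5923 bp beyond the end of the gene and at 24224 and 24285 bp from the TSS, with scores of 11.1 (59 tags) and 23.9 (161 tags) and a mean percentile of 92.58 ± 5.45 (SD, n = 2). The other 3 pairs lay in the last intron of NM_001003943. From the end nearest to the intergenic pair, they were centred at 12686, 7059 and 2599 bp from the TSS in replicate 1, with scores of 8.3, 7.55 and 8.11. In replicate 2 the same sites scored 17.7, 15.9 and 14.3. TGTTTAC was present in both replicates in the intergenic pair and in the pair at 12686 bp, and was not found within 100 bp of the centres of the other two. A BMF promoter peak at -90 bp appeared in replicate 1 (score 5.85, 31 tags, percentile 49.09) and had no overlapping peak in replicate 2. Its distance is counted from a different BMF start than those of the pairs. From the canonical GENCODE start, the replicate 1 peaks lay at -95, 5392, 9852, 15479 and 27017 bp.

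PMAIP1, which encodes NOXA, a BH3-only protein that binds MCL1, had the weakest shared peak of the BH3-only genes. Its promoter peak lay at -371 bp in replicate 1 and -419 bp in replicate 2, with scores of 5.28 (28 tags, 18.61 to 40.47) and 10.1 (68 tags, 52.8 to 86.21). The score percentile was 38.89 in replicate 1 and 71.67 in replicate 2, a mean of 55.28 ± 23.2 (SD, n = 2). By rank the peak was 7370th of 12471 and 7625th of 27281, so the percentiles differ mainly through the lengths of the lists. PMAIP1 also had 3 weaker peaks in replicate 2 alone, at -17140, 9533 and 144245 bp from the TSS, with 27, 33 and 32 tags. All 3 held TGTTTAC, and none was overlapped in replicate 1.

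**Figure D2:**
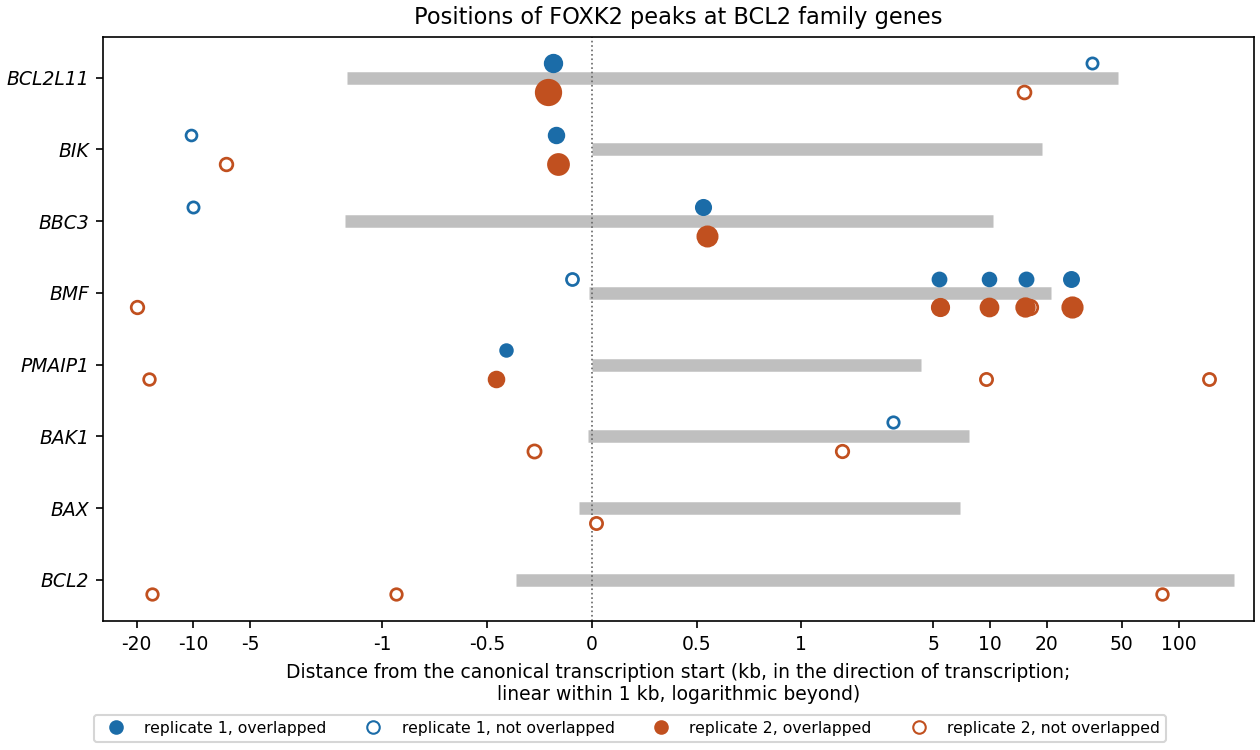
Distance of each FOXK2 peak centre from the canonical GENCODE transcription start (horizontal axis, kb in the direction of transcription, linear within 1 kb and logarithmic beyond), with grey bars for the annotated gene, replicate 1 above and replicate 2 below each bar, filled circles for overlapped peaks and larger circles for more tags. Filled circles sit just upstream of the start in BCL2L11, BIK and PMAIP1, just downstream in BBC3, and at 4 sites in and beyond BMF, while the circles of BAK1, BAX and BCL2 are all open. Some starts in the deposited annotation differ from the canonical ones. This moves the BMF sites by under 3 kb and the BBC3 site at -8509 bp to -10076 bp.

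The remaining peaks of the BH3-only genes appeared in 1 replicate alone. In replicate 1 these were a BCL2L11 intron peak at 34619 bp with TGTTTAC, an intergenic BBC3 peak at -8509 bp and an intergenic BIK peak at -10316 bp, with 23, 23 and 20 tags and percentiles no higher than 17.02. In replicate 2 they were a BCL2L11 intron peak at 15095 bp with 41 tags, the BIK peak at -6696 bp with 38 tags, and BMF peaks at 13536 bp and at -19945 bp with 63 and 37 tags. These BMF distances are counted from different starts of the gene. The BMF peak at 13536 bp was the strongest of the family without a partner, at a percentile of 67.09, and stood beside the shared peak at 12611 bp.

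Peaks of the effector genes were weak and did not overlap between replicates. BAK1 had a single intron 2 peak in replicate 1 at 3077 bp from the TSS (score 4.72, 25 tags, interval 16.18 to 36.9, percentile 26.7). In replicate 2 it had an intron 1 peak at 1657 bp (5.35, 36 tags) and a promoter peak at -259 bp (6.54, 44 tags, interval 31.97 to 59.07, percentile 41.87). BAX had no peak in replicate 1 and a single promoter peak in replicate 2 at 35 bp, in the 5′ untranslated part of exon 1 (score 4.91, 33 tags, 22.72 to 46.34, percentile 20.09). None of these 4 peaks held TGTTTAC.

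Of the antiapoptotic genes, only BCL2 was named in a peak list, and only in that of replicate 2. Its 3 peaks lay at -1321 bp, at -17070 bp in an intron of the neighboring gene KDSR, and at 81287 bp in the last intron of BCL2. They held 26, 26 and 27 tags, against a minimum of 21 in that list, and their percentiles were 4.644, 4.644 and 6.717. None held TGTTTAC. In replicate 1 the peak nearest to the BCL2 TSS lay at -103325 bp and was named for VPS4B.

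No peak was named for BCL2L1, which encodes BCL-XL, or for MCL1, but this depended on how peaks were assigned to genes. An intron of BCL2L1 held an overlapping pair that the lists name for the antisense gene ABALON, at chr20:31704585-31704795 in replicate 1 (score 5.28, 28 tags, percentile 38.89) and chr20:31704573-31704829 in replicate 2 (10.6, 71 tags, percentile 73.91). A further 1 peak of replicate 1 and 2 of replicate 2 lay in the same intron without overlap, and none of these peaks held TGTTTAC. The annotated span of MCL1, downstream of its canonical transcript, held a pair named for ADAMTSL4-AS1, at chr1:150568137-150568347 in replicate 1 (5.66, 30 tags, percentile 45.85) and chr1:150568149-150568405 in replicate 2 (11.3, 76 tags, percentile 77.25), with TGTTTAC in both. A replicate 1 peak at chr1:150575805-150576015, in the 3′ untranslated part of MCL1 exon 3, was not overlapped in replicate 2 (4.34, 23 tags, percentile 17.02) and held no TGTTTAC. Counting every peak in a gene or within 10000 bp of it, whatever gene the list names, 9 of the 10 genes had a peak in both replicates, all but BCL2, against 37.5% of GENCODE protein-coding genes. Under that rule the peaks near BAX in replicate 1 were 2 peaks at and upstream of the promoter of FTL, the ferritin light chain gene. The absence of BCL2L1 and MCL1 from the lists is therefore an absence of peaks nearest to their TSS, and not of peaks in the genes.

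Of the peaks assigned to the family, 8 of 13 in replicate 1 were overlapped in replicate 2, against 74.9% of all peaks, and 8 of 21 in replicate 2 were overlapped in replicate 1, against 34.2%. Overlap followed the score in the family as it did in the lists. In replicate 1 all 5 family peaks in the highest score quartile were overlapped (96.3% of all peaks there), and 0 of 3 in the lowest (50.7%). In replicate 2 the same counts were 7 of 7 (75.3%) and 0 of 7 (4.84%). In replicate 1 the family's peaks had a median score percentile of 69.8, against 49.1 for the whole list. Their median in replicate 2 was 36.7, below the middle of the list, so the family was not uniformly high.

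The 8 shared pairs had replicate 2 to replicate 1 score ratios from 1.76 to 2.46, with a median of 2.1, and their centres were a median of 21.5 bp apart. The median ratio over all 9343 overlapped peaks of replicate 1 was 1.73 (quartiles 1.45 and 2.02). All 8 ratios were above 1.73, but 1 had a 95% interval that lay above it, BCL2L11 with 2.46 (1.96 to 3.12). Among all pairs in the highest score quartile of replicate 1 the median was 1.8 (1.56 to 2.04).

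**Figure D3:**
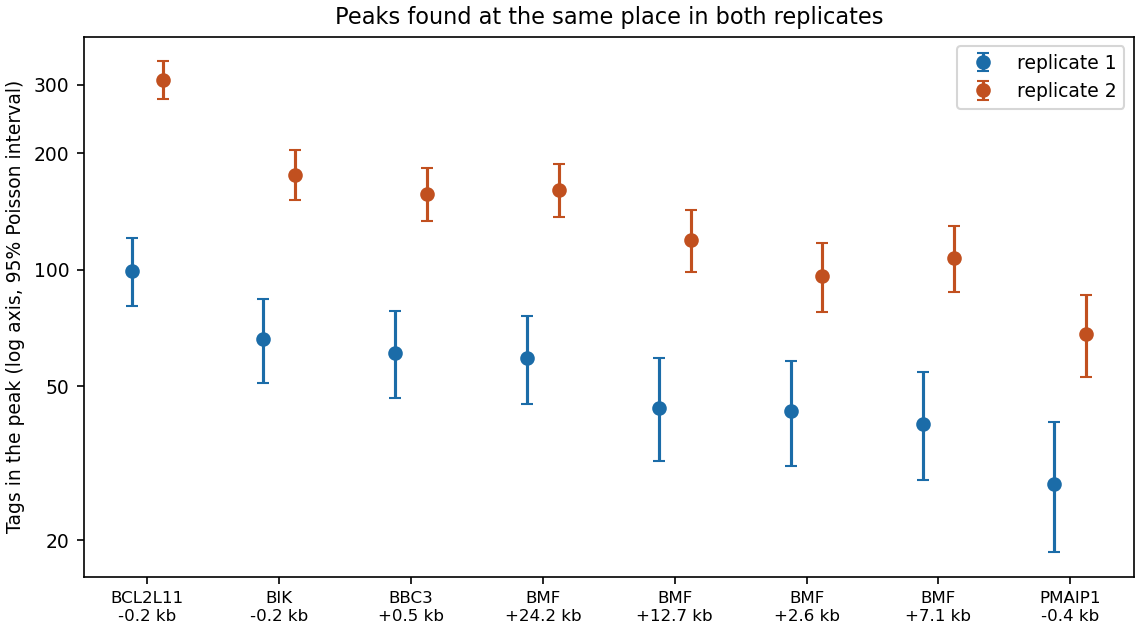
Tags in each of the 8 peaks found at the same place in both replicates (vertical log axis), with exact Poisson 95% intervals as bars, blue for replicate 1 and orange for replicate 2, and the distance from the TSS under each gene name. Tags run from 99 and 309 at BCL2L11 down to 28 and 68 at PMAIP1, and within each pair replicate 2 has more tags with intervals that do not overlap.

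TGTTTAC lay within 100 bp of the centre in 7 of 13 family peaks of replicate 1 (30.5% of all peaks) and in 10 of 21 of replicate 2 (28.2%). Within 50 bp the count was 4 of 13 in replicate 1, a share of 30.8% that lay near that of all peaks (3114 of 12471), and 9 of 21 in replicate 2 (23.4% of all peaks). All of the peaks with a site within 100 bp belonged to BH3-only genes, in 7 of their 12 peaks in replicate 1 and 10 of 15 in replicate 2. These genes held most of the family peaks, 12 of 13 and 15 of 21. The shared pair inside MCL1, named for a neighboring gene and so not counted here, also held TGTTTAC in both replicates. Among overlapped family peaks 6 of 8 held it in each replicate, against 34.3% and 34.9% of all overlapped peaks, and among the others 1 of 5 and 4 of 13 held it, against 19.4% and 24.6%. Promoter peaks held it less often across the lists, with 14.4% in replicate 1 and 10.9% in replicate 2.

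The AP-1 site TGAGTCA, or its reverse complement TGACTCA, was in 0 of 13 family peaks of replicate 1, which allows a share of up to 23.1%, and in 1 of 21 of replicate 2, the BIK peak at -6696 bp. Over the whole lists the AP-1 site was held by 16.4% of replicate 1 peaks and 16.6% of replicate 2 peaks, and among promoter peaks by 3.88% and 3.36%. Family peaks were rich in G and C, with a median of 62.2% in replicate 1 and 51.2% in replicate 2, against 47.3% and 46.3% for all peaks and 63.2% and 63.7% for promoter peaks. The promoter class held 4 of 13 and 5 of 21 family peaks, against 21.7% and 18.0% of all peaks. In the RefSeq promoter table of hg38, which spans 250 bases before to 50 after a start, 8 of the 10 genes were matched with 10 windows. TGTTTAC was in 1 of the 10, that of BCL2L11, against 3.42% of 35116 windows. The BIK window was not among those matched, and the PMAIP1 and BBC3 sites lie outside these windows.

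The wider apoptosis machinery was counted in 4 further lists. Of 14 other genes with BCL2 homology or BCL2-binding products, 4 had a peak in both replicates, namely BCL2L10, BECN1, BNIP3 and BNIP3L. This is 28.6%, the same share as over all protein-coding genes (28.6%). The best of these was a pair for BCL2L10, an antiapoptotic gene, that lay -27.3 kb from its TSS in an intron of GNB5 and held TGTTTAC, with percentiles of 86.9 and 94.7. The BECN1 pair, at the promoter of this autophagy gene, ranked at percentiles of 68.0 and 80.8. The genes BCL2L2, BCL2A1, BCL2L12, BCL2L13, BAD and HRK had no peak in either list (42.9%, against 45.6% of all protein-coding genes). Of these, BAD and HRK encode BH3-only proteins.

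Of 15 apoptosome and caspase genes, 3 had a peak in both replicates, against 28.6% of all genes, namely CYCS, APAF1 and VDAC1. CYCS, the cytochrome c gene, had an intergenic pair 26.8 kb from its TSS at percentiles of 96.2 and 97.4. No caspase had a peak in replicate 1. Of 6 inhibitor of apoptosis genes, 3 had peaks in both (background 28.6%), and the best pair was that of BIRC3, -75.1 kb from the TSS at percentiles of 92.6 and 96.6 with TGTTTAC. CFLAR, the gene of the caspase-8 inhibitor FLIP, had an intronic pair at 588 and 591 bp with TGTTTAC at percentiles of 83.4 and 86.4, and BIRC6 had the third. Of 9 death receptor and ligand genes, 5 had peaks in both (55.6%, background 28.6%), namely FASLG, TNFRSF1A, TNFRSF10B, FADD and RIPK1. The strongest pair was assigned to FASLG, 87.5 kb from its TSS at percentiles of 97.6 and 98.4, while TNFRSF10B, the TRAIL receptor DR5, had a promoter pair with scores of 5.28 and 8.48. Peaks that overlapped between replicates were found for 3 of 14, 2 of 15, 3 of 6 and 3 of 9 genes of the 4 lists, in the order given, and for 5 of the 10 BCL2 family genes, against 25.5% of all genes. The share in the family was the same as among the inhibitor of apoptosis genes.

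**Figure D4:**
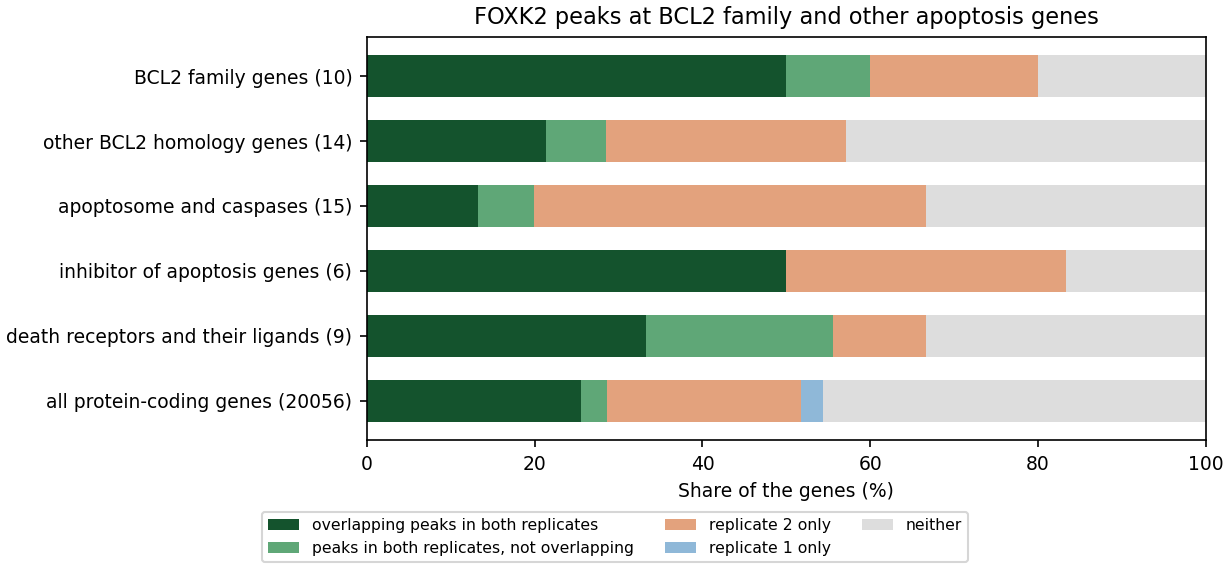
Share of genes (horizontal axis, %) in the BCL2 family, in 4 other apoptosis gene lists and among all 20056 protein-coding genes, divided by whether FOXK2 peaks were found in both replicates and overlapped, in both without overlap, in 1 replicate only, or in neither, with the number of genes in parentheses. Overlapping peaks were found for 5 of the 10 BCL2 family genes, from 13.3% (apoptosome and caspases) to 3 of 6 (inhibitor of apoptosis genes) in the other lists, and for 25.5% of all genes.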

How the data were processed

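FOXK2 ChIP-seq of OVCAR-5 cells was analysed from the deposited peak lists of 2 biological replicates. Per the study's methods, the authors mapped single-end reads to hg38 with Bowtie2 2.2.6 and called peaks with HOMER 4.10. The study also assessed peaks against input in a separate step, whose values were not used here. Whether input served as the control in the HOMER call is not given in the sources used here. Each list, 1 per replicate, holds peaks of 1 width (end minus start of 210 bp in replicate 1 and 256 bp in replicate 2, so that a printed replicate 1 peak has 211 bases with both ends counted), the score assigned to it by HOMER in the authors' processing, a focus ratio, which is a fraction computed by the authors' software, and the nearest TSS. The lists were used as deposited.

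Tags were recovered as the score divided by its step. All scores under 10 lay within 0.006 of a whole number of steps. If HOMER's default scaling to 10000000 tags was used, the steps imply libraries of about 53000000 and 67200000 tags. Peaks overlapping by at least 1 bp counted as shared. Motif matches on either strand were counted up to 100 bp from the centre. GENCODE release 44 gave gene spans, and the RefSeq gene and promoter tables gave protein-coding genes and promoter sequences. Peak sequences were read from the hg38 reference, taking starts as 1-based. For each gene with overlapping peaks, the pair with the best mean percentile was selected, and the replicate 1 sequence was printed for 4 of the 5 genes. The other sequence is not reported here. All 10 genes were named, and from each further list up to 5 genes with peaks in both replicates.

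The members and lists were chosen with earlier results of these data known. No test was run, since 2 replicates of 1 condition allow none between conditions. Alternatives were other gene assignments, distance limits, higher-scoring or equally long lists, stricter overlap, other motif windows, a shorter motif, other promoter definitions, ranking within annotation classes, and leaving out each replicate. Simulated lists with known overlaps and motifs were recovered with an error of 0. Their peaks were widely spaced, so this checked the counting steps and not crowded or nearly overlapping peaks. Python 3.11.15, numpy 2.4.6, pandas 2.3.3, scipy 1.17.1, pysam 0.24.0, samtools 1.23.1 and matplotlib 3.10.9 were used.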

Additional observations from a re-analysis of the deposited data

How the results depend on the processing

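Of 29 alternative values for the main counts, 27 stayed within 1.5 times the reported count. This rule compares counts and not shares. With lists of equal length, for instance, the overlapped family peaks of replicate 2 went from 8 of 21 to 8 of 9, an unchanged count. The number of replicate 1 family peaks with TGTTTAC fell from 7 to 4 when the window was narrowed to 50 bp on each side, and that of replicate 2 went from 10 of 21 to 6 of 9 when only the higher-scoring part of the list was kept, by construction with fewer peaks. The number of genes with a peak in both replicates was 6, and was 8 without replicate 1 and 6 without replicate 2. It was 9 when peaks in the gene or within 10000 bp were counted, 5 with lists of equal length and 4 in the higher-scoring part of each list, where PMAIP1 and BAK1 were lost. Ranking peaks within their annotation class lowered the percentiles of promoter peaks. In replicate 2 that of BAK1 went from 41.87 to 26.35, that of BAX from 20.09 to 9.206 and that of PMAIP1 from 71.67 to 58.73. In replicate 1 that of BMF went from 49.09 to 39.72 and that of PMAIP1 from 38.89 to 30.27. These shifts were within a limit set for each percentile. For shared peaks the limit was the SD between replicates, which includes the difference in list length and is not a measure of error alone. For the others it was the range that the Poisson interval of the tags allows. The shifts of the replicate 1 promoter peaks of BCL2L11, from 97.25 to 94.5, and of BIK, from 91.75 to 86.38, were smaller but exceeded their SD. No paired analysis was possible because both peak lists are of FOXK2 libraries, with no comparison of groups, and no values of the input libraries were used here. The peak lists give no level below their thresholds, and assignment to the nearest TSS does not show which gene a site acts on.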

Other observations

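Some peaks assigned to the BCL2 family lay in or beside other genes. The shared BCL2L11 promoter peak and its weaker intronic peaks also fell within the span of MIR4435-2HG, and the BAK1 peaks fell within that of GGNBP1. Close to BAX, 2 overlapping pairs were assigned to FTL, a gene of iron storage. The pair at the FTL promoter scored 8.11 in replicate 1 (43 tags, interval 31.12 to 57.92) and 12.3 in replicate 2 (83 tags, 66.11 to 102.9), and the pair upstream of it scored 5.28 and 9.82. In replicate 2, where BAX had its single peak (score 4.91, 33 tags), the FTL peaks of both pairs scored higher.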
